A study of Mus musculus with 5 samples.

Results

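The 9 genes Fgr, Lyn, Fes, Src, Fyn, Yes1, Blk, Syk and Btk encode tyrosine kinases of the cytoplasm, and they were taken by name from the 21631 protein-coding genes of chromosomes 1 to 19 and X. For each gene, the PU.1 binding sites were collected that lay inside the gene or no farther than 50 kb from either of its ends, and the sites within 10 kb of an end were counted apart. The deposited list holds 11111 sites, each given as the single base at the summit of a peak, and 34 of them met this rule. PU.1 (gene Spi1) is a transcription factor that myeloid cells and B cells require. It was mapped by chromatin immunoprecipitation and sequencing with the antibody T-21 in AML-246, an acute myeloid leukaemia of C57BL/6 mice that lacks p53 and carries a GFP-linked hairpin RNA against PU.1.

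Cells came from the spleens of leukaemic recipient mice. The PU.1 low group (2 libraries) was untreated. The PU.1 high group (3 libraries) had received doxycycline for 2 days, which shuts the hairpin off so that the cells' own PU.1 comes back. Both groups carry the same hairpin and the same p53 loss. AML-246 is a single leukaemia, and the labels call the libraries technical replicates. The list is a comparison of high with low by its own naming, and it holds no value per library. A site in it is read here as one where binding was stronger with PU.1 high. The number given for a site is the authors' score on a −log10 scale, which grows with the certainty of the call and with read depth. Depth is unknown, no error between libraries can be given, and the sites say nothing about RNA or protein of the kinases.

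Src family kinases sit at the inner face of the cell membrane and phosphorylate the signalling motifs (ITAMs) of Fc receptors, lectin receptors, integrin-linked adaptors and the B cell receptor. Syk then docks on these motifs through its paired SH2 domains and passes the signal on, and Btk, a kinase of the Tec family, acts further down by activating phospholipase C gamma. Lyn and Fgr are the members best known in myeloid cells, Blk belongs to B cells, and Src, Fyn and Yes1 are made in many tissues. Fes is not a Src family kinase but a relative with a membrane-binding F-BAR domain, and it is abundant in myeloid cells.

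Lyn, Syk, Fyn and Fes held most of the sites, while Src and Blk held none. Of the 9 genes, 5 (Lyn, Syk, Fes, Fyn and Btk) had at least 1 site within 10 kb of an end, whereas 22.4% of all protein-coding genes had one. With sites up to 50 kb out, 7 of the 9 genes had a site, against 50.3% of all protein-coding genes. These backgrounds rise to 26.7% and 56.6% among genes whose spans are 10 to 200 kb, the range that covers the 9 genes (10.2 to 195.6 kb). With 9 genes chosen by name, these counts describe the genes and carry no test. Lyn had 10 sites, Fyn and Syk 7 each, Fes 5, Fgr and Btk 2 each and Yes1 1.

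**Figure D1:**
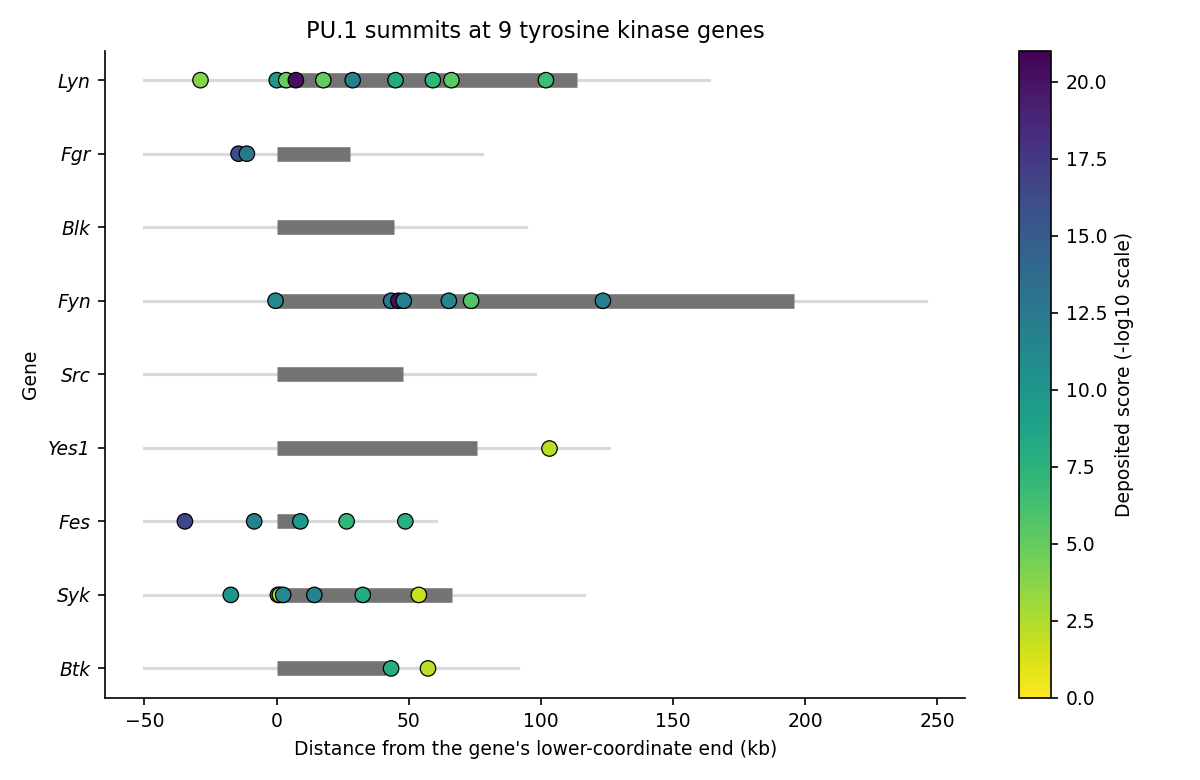
Sites at the 9 kinase genes, by distance in kb from the end of the gene with the lower coordinate. Thick bars are gene spans, thin lines the 50 kb to each side, and each point is a summit coloured by its deposited score. Lyn and Syk carry sites along the gene, Fgr, Yes1 and Btk only outside it, and Src and Blk have none.

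Of the 34 sites, 22 (64.7%) lay inside the kinase gene itself, and 15 of these were more than 10 kb from either end. In the whole list, 52.03% of sites lay inside some protein-coding gene, which is a wider measure. Sites outside Fes and Btk that lay inside Man2a2, Furin or Gla would count under it. The 34 sites were also gathered by gene span and flank, so the shares are not like for like. Lyn, Fyn and Syk together held 21 of the 22 sites inside genes. Only 3 of the 34 sites stood within 1 kb of an end, 1 each at Lyn, Fyn and Syk, and 10 within 10 kb. For 7 of the 34 sites the nearest gene end belonged to a different protein-coding gene. These were sites near Fes, Btk and Yes1, described below, and distance alone does not tie a site to a gene.

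The scores of the 34 sites ran from 1.77 to 20.3 with a median of 9.74. A 95% interval of the median from binomial order statistics, 7.20 to 11.7, treats the sites as independent draws. They are instead all the sites of 9 named genes, and 24 of them come from Lyn, Fyn and Syk. The interval is thus only a rough guide to spread. The median of the whole list, 8.56, lies inside it, which is not a test. A score of at least 10 was reached by 16 of the 34 sites (47.1%) and by 37.4% of all sites. The 2 strongest, 1 in Lyn and 1 in Fyn, exceeded 20, as did 432 sites (3.89%) of the list. Scores come in steps: the list holds 1333 different scores, and 95.1% of sites share theirs with another site. Equal scores at different genes, such as 11.9 in both Lyn and Fyn, which 101 sites share, are thus common.

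**Figure D2:**
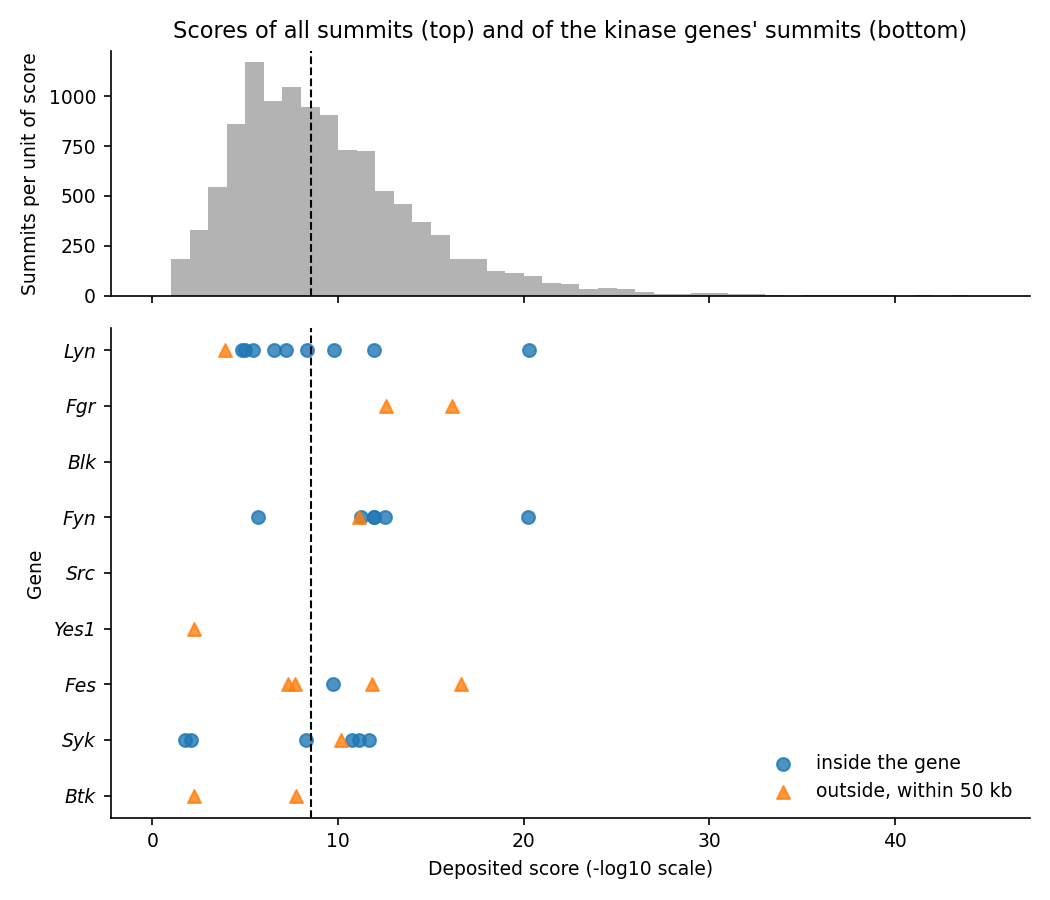
Deposited scores (−log10 scale) of all 11111 sites as a histogram above, and of the 34 sites of the kinase genes below, 1 row per gene. Circles are sites inside the gene, triangles sites outside it, and the dashed line is the median of all sites, 8.56. Fgr and Fyn sit mostly to the right of the line and Lyn mostly to the left of it.

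Among the myeloid Src family members, Lyn (gene ID 17096, chromosome 4, 3678068 to 3791612) had the most sites. Lyn both starts signals, by phosphorylating ITAMs, and dampens them through inhibitory receptors. Of its 10 sites, 9 lay inside the gene. The strongest, with a score of 20.3, stood 7.29 kb into the gene from its lower end at 3685354. Another, of score 9.76, stood at 3678116, only 48 bases inside the lower end and 8 bases from an end of the long noncoding RNA gene Gm42250. Between these, at 3.63 kb from the lower end, was a site of score 4.83. The remaining sites inside Lyn scored 4.99, 11.9, 8.35, 7.20, 5.40 and 6.57 in order of position, and the site outside, 28.8 kb beyond the lower end, scored 3.90. Only 2 of the 10 scores exceeded 10, so Lyn combined many sites with mostly modest scores.

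Few genes had as many. At least 10 sites inside or within 50 kb were found at 35 of the 21631 protein-coding genes (0.162%), Lyn included, and at least 9 sites inside the gene at 14 (0.0647%). Longer genes have more room for sites. Among the 2089 genes with a span from 1.5 times shorter to 1.5 times longer than Lyn's, 9 had at least 10 sites, Lyn included, and the median was 1.

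Fgr (gene ID 14191, chromosome 4, 132974095 to 133001893), a Src family kinase of neutrophils and macrophages that acts in integrin signalling, had 0 sites within 10 kb and 2 just beyond. They scored 16.1 and 12.6 and lay 14.4 and 11.3 kb upstream of its annotated start, 3.15 kb from each other. Fgr was the nearest protein-coding gene to both, but the noncoding gene Gm36518 was closer, at 999 and 2151 bases. A score of at least 16.1 was reached by 9.32% of all sites and one of at least 12.6 by 21.6%. Fgr is thus counted without a site at 10 kb although both of its sites rank in the upper quartile of the list, which begins at 11.9. Blk (chromosome 14, 63372837 to 63417187), the B cell member, had 0 sites within 50 kb, and its nearest site lay 171.9 kb away with a score of 8.36.

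Among the widely expressed Src family members, Fyn (gene ID 14360, chromosome 10, 39369743 to 39565381) had more sites than Src and Yes1. It had 7 in all, and 6 of them lay inside the gene. The site outside, with a score of 11.1, was 477 bases upstream of the annotated start. A group of 3 sites followed within the gene at 43.33, 46.04 and 48.1 kb from its lower end, with scores of 12.5, 20.2 and 11.9 and gaps of 2.71 and 2.07 kb. Farther in were sites of 11.2, 5.71 and 11.9, at 65.2, 73.6 and 123.5 kb from the lower end. Scores of 10 or more were reached by 6 of the 7 sites, against 2 of 10 at Lyn. Because Fyn spans 195.6 kb, its count has to be read against long genes. At least 7 sites were found at 188 of all protein-coding genes (0.869%) and at 49 of the 1153 genes within 1.5 times its span (4.25%).

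Src (chromosome 2, 157423906 to 157471838), the founding member of the family, had 0 sites within 50 kb. Its nearest site, of score 11.002, lay 56.9 kb beyond the lower end, just outside the limit. Yes1 (chromosome 5, 32611171 to 32687066) had 1 site, with a score of 2.24, located 27.0 kb beyond its upper end and 22.2 kb from the nearest end of Pisd. That score was exceeded or equalled by 97.8% of all sites. The absence of a listed site does not show absence of PU.1 there, since sites bound alike in both groups are not what a high against low comparison lists.

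Fes (gene ID 14159, chromosome 7, 80377758 to 80387954) is the shortest of the 9 genes at 10.2 kb, and it had 5 sites. The only site inside it scored 9.71 and lay 1.21 kb downstream of its annotated start, at 80386734. The other 4 were nearer to ends of other genes. A site of score 11.8, 8.49 kb beyond the lower end of Fes, lay inside Man2a2. The highest, of score 16.6, lay 34.7 kb beyond the lower end and 14 bases from an end of Hddc3. A site of score 7.29, beyond the upper end of Fes, lay inside Furin, 1.19 kb from an end of that gene, and another of score 7.69 stood between genes. At least 5 sites were found at 781 protein-coding genes (3.61%) and at 95 of 3995 genes within 1.5 times the span of Fes (2.38%). Counting a site only for the gene with the nearest end left Fes with 1 site.

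**Figure D3:**
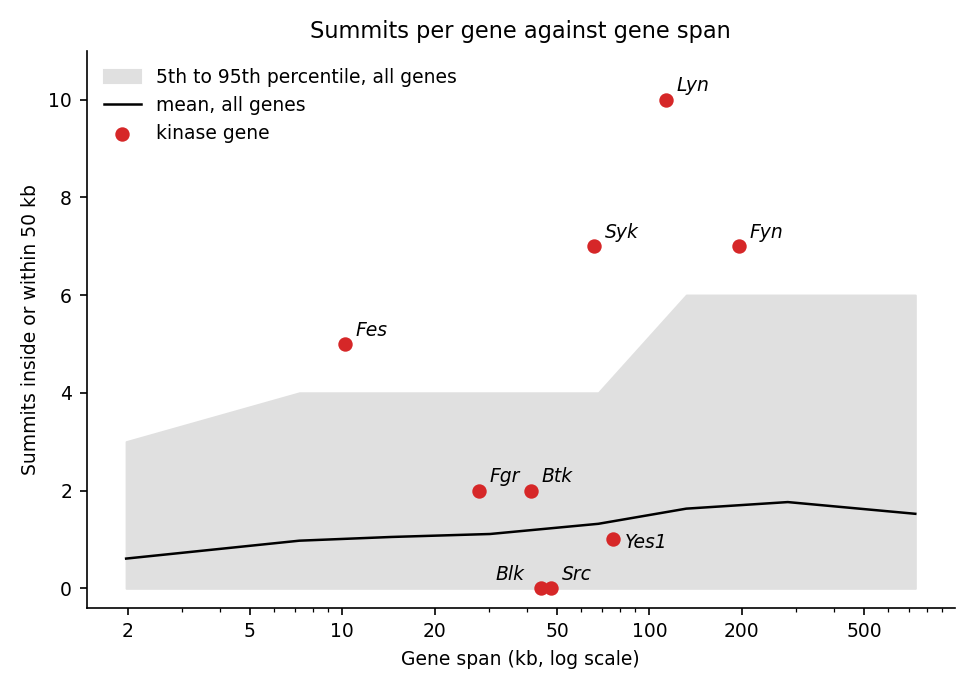
Number of sites inside or within 50 kb of each gene against its span in kb (log scale). The grey band is the 5th to 95th percentile and the black line the mean over all protein-coding genes in classes of span, and red points are the 9 kinase genes. Lyn (10 sites), Syk and Fyn (7 each) and Fes (5) lie above the band, and the other 5 genes lie within it.

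Syk (gene ID 20963, chromosome 13, 52582610 to 52648792) had 7 sites, 6 of them inside the gene, and 4 of them stood within 2 kb of an annotated start. RefSeq gives 2 promoter windows for Syk, each reaching from 250 bases before a start to 50 after it. Around the first start, at 52583437, sites stood 331 bases upstream (score 10.8), 409 bases downstream (2.06) and 1.64 kb downstream (11.1). At the second start, at 52596882, the summit lay 3 bases upstream, at 52596879, with the highest score of the gene, 11.7. The other sites scored 10.1 (17.3 kb beyond the lower end), 8.27 and 1.77, the last 2 inside the gene. At least 6 sites inside a gene were found at 68 protein-coding genes (0.314%), and of the 3035 genes within 1.5 times the span of Syk, 2 had as many, Syk included. At least 7 sites inside or within 50 kb, the count set out above for Fyn, were found at 33 of those 3035 genes (1.09%). With a score of at least 10, 4 of its 7 sites were left.

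The 2 Syk windows are shown because a summit fell inside the second and just outside the first. A summit inside such a 300-base window was found in 2.02% of the 32851 windows of the table. For the 7 kinase genes with an entry (Fgr, Fes, Src, Fyn, Yes1, Syk and Btk, 8 windows in all), the second Syk window was the only one with a summit. Both are given 5′ to 3′ on the plus strand of GRCm38.p6, and capitals mark GGAA, the core that ETS factors such as PU.1 recognise, or its reverse complement TTCC. The first, at chr13:52583187-52583486, holds 0 such matches, and its nearest summit lay 81 bases beyond the window. The second, at chr13:52596632-52596931, holds 3.
Syk first start: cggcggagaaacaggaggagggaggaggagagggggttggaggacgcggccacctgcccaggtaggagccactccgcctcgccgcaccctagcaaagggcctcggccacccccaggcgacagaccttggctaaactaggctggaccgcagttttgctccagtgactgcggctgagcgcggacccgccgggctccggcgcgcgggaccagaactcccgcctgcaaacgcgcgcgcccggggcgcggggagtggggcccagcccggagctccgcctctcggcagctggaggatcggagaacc
Syk second start: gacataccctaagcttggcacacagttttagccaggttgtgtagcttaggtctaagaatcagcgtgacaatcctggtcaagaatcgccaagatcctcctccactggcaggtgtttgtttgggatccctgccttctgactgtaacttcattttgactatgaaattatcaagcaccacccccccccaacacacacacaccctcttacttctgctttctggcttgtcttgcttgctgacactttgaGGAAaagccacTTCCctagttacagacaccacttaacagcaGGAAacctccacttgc

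In the second Syk window the summit is base 248, counted from 1 at the left. The first GGAA ends 1 base before it, at base 247, and the TTCC that follows begins 7 bases after it, at base 255. This TTCC is part of ACTTCC, the reverse complement of GGAAGT, at bases 253 to 258. GGAA on either strand is found in 95.98% of all windows, so its presence is common. Closeness to a summit was counted too. In windows with a summit, a GGAA lay within 10 bases of 75.2% of the 662 summits counted over windows, and 34.9% of all bases of those windows lay that close to one. The 662 stand for 575 different summits, because a summit in overlapping windows was counted once for each window. For GGAAGT the shares were 34.6% and 7.74%. The window of Fyn, whose nearest summit lay 227 bases beyond it, held no GGAA on either strand. The eight-base letters of the PU.1 site, GAGGAAGT, were found on either strand in none of the 8 windows of the kinase genes and in 3.20% of all windows. These matches describe the letters only.

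Btk (gene ID 12229, chromosome X, 134542334 to 134583628), the kinase that B cell receptor signalling depends on, had 2 sites, both upstream of its start and both next to other genes. The first, with a score of 7.75 at 134585638, lay 2.50 kb upstream of the annotated start of Btk but only 16 bases upstream of the start of Rpl36a, a ribosomal protein gene that runs the other way. The second, of score 2.26, lay 16.5 kb upstream of Btk, inside Gla. Chromosome X held 186 of the sites, and 8.39% of its protein-coding genes had a site within 10 kb of an end, so Btk belongs to a minority there. If a site counts only for its nearest gene, Btk has none.

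The window of Btk, at chrX:134583091-134583390 on the minus strand, and that of Rpl36a, at chrX:134585404-134585703 on the plus strand, are shown because the site nearest to Btk falls in the second. Both read 5′ to 3′ along their gene, and capitals again mark GGAA or TTCC.
Btk: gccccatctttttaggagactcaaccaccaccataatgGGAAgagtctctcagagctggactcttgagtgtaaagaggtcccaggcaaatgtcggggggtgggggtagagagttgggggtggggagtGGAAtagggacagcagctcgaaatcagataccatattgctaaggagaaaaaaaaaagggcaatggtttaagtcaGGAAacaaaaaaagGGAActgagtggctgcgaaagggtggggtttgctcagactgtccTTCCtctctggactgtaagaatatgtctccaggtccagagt
Rpl36a: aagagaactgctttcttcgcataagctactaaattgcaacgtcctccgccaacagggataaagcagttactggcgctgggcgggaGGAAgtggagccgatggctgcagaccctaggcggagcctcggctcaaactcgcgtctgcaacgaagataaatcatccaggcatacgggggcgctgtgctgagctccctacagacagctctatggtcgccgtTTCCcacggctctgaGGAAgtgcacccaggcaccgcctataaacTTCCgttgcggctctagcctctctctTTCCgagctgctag

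The Btk window holds 5 matches of GGAA or TTCC and no summit, the nearest being 2248 bases beyond it. In the Rpl36a window the summit is base 235. It lies inside a GAGGAAGT at bases 230 to 237, and a second GAGGAAGT stands at bases 84 to 91. Windows with a summit held GAGGAAGT in 10.7% of 662 cases, and a summit lay within 10 bases of it in 7.85%, while 1.09% of the bases of these windows are that close. The letters of AP-1 (TGANTCA), RUNX (TGTGGT) and C/EBP (TTGCNNAA) sites were near summits in 0.604%, 1.51% and 0.302% of cases and near 0.599%, 1.63% and 0.883% of bases. No AP-1 and no C/EBP letters were found in the 8 windows of the kinase genes, and RUNX letters were found in that of Yes1 only, as 1 match.

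The window of Fes, at chr7:80387897-80388196 on the minus strand, is shown as the richest in GGAA or TTCC among the 8, with 8 matches. It held no summit, and the site inside Fes lay 1163 bases beyond it.
Fes: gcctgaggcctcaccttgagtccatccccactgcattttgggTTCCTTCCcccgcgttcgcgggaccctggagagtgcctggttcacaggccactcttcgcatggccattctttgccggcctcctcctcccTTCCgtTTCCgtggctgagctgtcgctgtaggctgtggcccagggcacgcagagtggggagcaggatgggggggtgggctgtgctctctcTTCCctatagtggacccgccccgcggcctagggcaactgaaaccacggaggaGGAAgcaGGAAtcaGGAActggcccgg

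The other windows held 4 (Fgr), 2 (Src) and 3 (Yes1) such matches, and the nearest sites to their starts were 11.3, 57.3 and 102.9 kb away. Each of these 3 windows thus holds the core letters with no summit of the list within 10 kb of the start.

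A set of 22 other non-receptor tyrosine kinases served as the closest relatives. A site within 10 kb of an end was found at 7 of them (31.8%), against 5 of the 9 genes (55.6%), and a site inside or within 50 kb at 16 (72.7%), against 7 of 9 (77.8%). Over all protein-coding genes these shares were 22.4% and 50.3%. The difference between the sets was not tested. The medians were 1 site per gene in the relatives, 2 in the 9 genes and 1 in all protein-coding genes. Lyn, with 10, and Fyn and Syk, with 7 each, exceeded the highest count of these 22 relatives, 4 at Jak1 and Tec. Csk, which is described with the negative regulators, had 3. Of the Tec family, Tec had 4 sites, 2 of them within 10 kb of an end with a highest score of 6.41. Jak1, a cytokine receptor kinase, had 3 within 10 kb (highest 8.46), and Tyk2, of the same family, 1. Abl1 (11.8) and Tnk1 (6.45) had 1 each. The site of Ptk6 scored 32.0, the highest within 10 kb of any of these kinases, and the same summit lay 12.3 kb from Srms. Lck and Zap70, the T cell counterparts of the Src family and of Syk, had 0 sites within 50 kb, and they are named here after their values were seen.

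**Figure D4:**
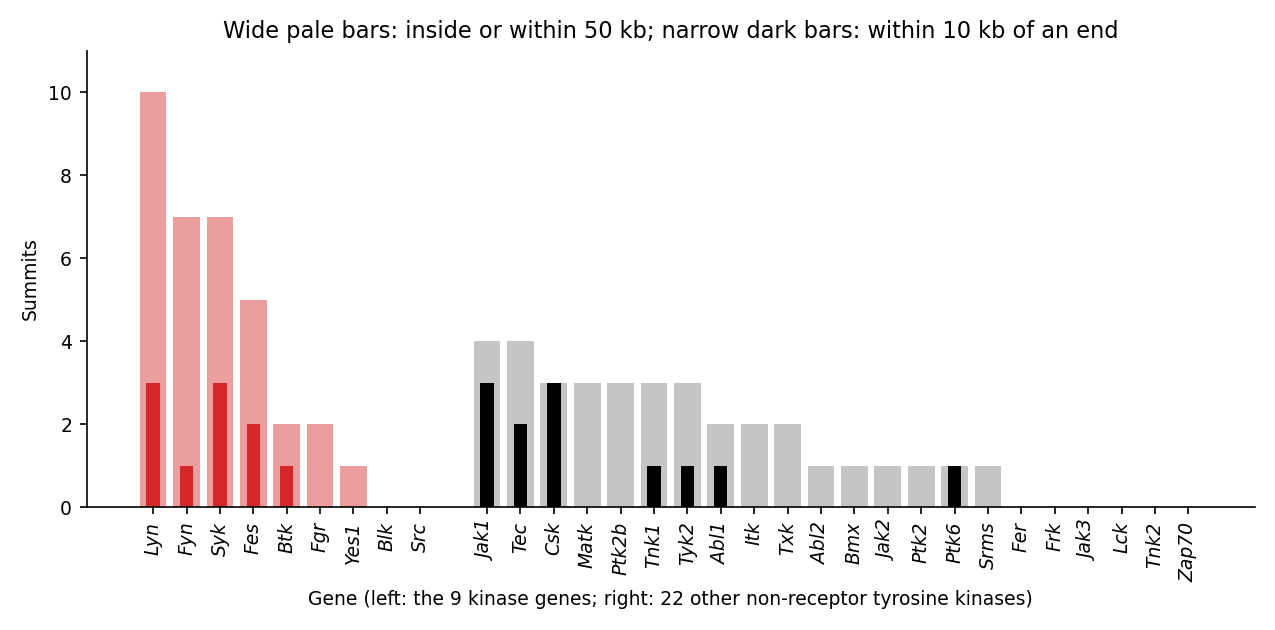
Sites per gene at the 9 kinase genes (left, red) and at 22 other non-receptor tyrosine kinases (right, grey), with wide pale bars for sites inside or within 50 kb and narrow dark bars for sites within 10 kb of an end. Lyn has 10 sites, Fyn and Syk 7, and Jak1 and Tec, the highest of the 22, 4.

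Receptors, substrates and inhibitors of these kinases were counted in the same way. Of 62 genes in 3 lists, 42 (67.7%) had a site within 10 kb of an end, beside 5 of 9 kinase genes and the 22.4% of all genes. Their median span was 27.6 kb, against 47.9 kb for the 9 kinase genes. Of these genes, Csk also stands among the relatives above. In the list of receptors and adaptors that recruit Src family kinases and Syk, 12 of 18 genes had one. Fcer1g, the ITAM chain of Fc receptors, led with a score of 26.0, followed by Fcgr1, the high-affinity IgG receptor (15.6), and Trem2, a lipid receptor of macrophages (14.5). Cd79a and Cd79b, the ITAM chains of the B cell receptor, had 0 sites within 50 kb. So did Clec4e, a lectin receptor of myeloid cells that is named after its values were seen. These 3 were the only genes of this list without a site there.

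Among substrates and effectors, 15 of 22 genes had a site within 10 kb. Vav1, a guanine nucleotide exchange factor, scored 22.6, the adaptor Lcp2 (SLP-76) 21.8 and its B cell counterpart Blnk 15.96. Bcl10 and Card9, which link Syk to NF-kB, had 0 sites within 50 kb. Among negative regulators, 15 of 22 genes had one. Sla, an adaptor that lowers receptor signalling, scored 15.98, Csk, the kinase that switches Src family members off by phosphorylating their tail, 14.2, and Ptpn22, a phosphatase that acts on Src family kinases, 13.6. Csk had 3 sites, all inside the gene. Ubash3b, a phosphatase that acts on Syk and is named after its values were seen, had 10 sites inside or within 50 kb, as many as Lyn. Cd22, an inhibitory receptor of B cells, was the only gene of this list with 0 sites within 50 kb.

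By role, Lyn, Fgr, Fes and Syk were grouped for their part in myeloid cells. Each had at least 2 sites inside or within 50 kb, as did 26.9% of all protein-coding genes. Their highest scores ran from 11.7 to 20.3, although the highest at Fes belongs to the site next to Hddc3. Of the widely expressed Src, Fyn and Yes1, Fyn alone had more than 1. Blk and Btk, grouped for B cells, had 0 and 2, so Btk also reached 2 sites, with a highest score of 7.75. The roles overlap, since Src family kinases and Syk also act at the B cell receptor, and Btk is not confined to B cells. The sorting by role was neither planned nor tested. Of the 27 gaps between neighbouring sites at these genes, 7 were under 4 kb, or 2 each at Lyn, Fyn and Syk and 1 at Fgr, while 10.05% of neighbouring sites in the whole list were that close. Gaps at a gene are bounded by the stretch searched, and the limit of 4 kb was not planned, so the shares are set side by side only.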

How the data were processed

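The series holds 1 processed table, a list of 11111 peak summits from 5 libraries, made by the authors with MACS2 on mm10 after CASAVA 1.8.2, per the submitters' processing notes. The deposited score of each summit is on a −log10 scale. The MACS2 settings, the aligner, the way libraries were combined and the kind of p-value behind the score are not given in these sources. Positions are 1-based. Genes and promoter windows were taken from RefSeq tables of GRCm38.p6, whose chromosomes are those of mm10, and all 9 genes and all listed genes matched by symbol. The gene table gives no strand, so ends are called lower and upper by coordinate, and starts come from the promoter windows, held for 7 of the 9 genes. Every site was counted for each gene in reach.

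The members and lists were chosen with earlier results of these data known. The comparison with genes of like span, the letters GGAAGT and the distances of letters to summits were chosen after the data were seen. One planned relative is not reported here. Named were all 9 members with their sites, the relatives with a site within 10 kb, and in each pathway list the 3 genes with the highest score within 10 kb and the first 2 in alphabetical order without a site within 50 kb. Site assignment was tested on simulated positions (Python 3.11.15, pandas 2.3.3). The list has no values per library, so no test between groups was made. Alternatives changed the minimum score, both distances, the assignment to genes and the merging of close sites.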

Additional observations from a re-analysis of the deposited data

How the results depend on the processing

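Of 41 alternative values of the counts over the 9 genes, the relatives and the 62 pathway genes together and of the median score, 29 stayed within 1.5 times (the median within its interval), and the other 12 follow. At a score of at least 10, the sites within 10 kb of an end fell from 10 to 5 and those inside or within 50 kb from 34 to 16, and relatives with a site within 10 kb fell from 7 to 3. At that score 4 of the 9 genes still had a site within 10 kb, against 9.08% of all genes. At 1 kb from an end, 3 of the 9 genes, 3 sites, 2 relatives and 15 of the 62 pathway genes were left, against 6.41% of all genes. At 5 kb, 4 of the 22 relatives were left, against 15.1% of all genes. At 20 kb, the sites of the 9 genes rose to 19 and the relatives to 11, against 32.2% of all genes. With the gene span only, 4 of the 9 genes and 22 sites were left, against 16.6% of all genes with a site. Of 72 alternative values of the counts for single kinase genes and single pathway lists, 49 stayed within 1.5 times and 23 did not. Among those, at a score of at least 10, Lyn fell from 10 sites to 2, Fes from 5 to 2, Syk from 7 to 4, and the receptors and adaptors from 12 genes to 7. Btk and Yes1 had 0 at that score. With the gene span only, Fgr, Btk and Yes1 had 0 sites and Fes 1, and with a flank of 100 kb Src had 2. Giving each site to its nearest gene end left 27 of the 34 sites and took Btk and Yes1 off the list of genes with a site. That left 5 of the 9 genes with a site inside or within 50 kb, against 25.6% of all genes. No paired analysis was possible because single libraries have no values in the list, and none could be left out either. Read depth is unknown, so how many sites it kept from being called cannot be given.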
